A study of Mus musculus with 3 samples.

Results

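Plasmacytoid dendritic cells of the mouse infrarenal aorta are described here from 3 single-cell RNA libraries. A member was a barcode with at least 200 genes and at most 10% of its UMIs (unique molecular identifiers, the molecules counted) from mitochondrial genes that had at least 2 UMIs of Siglech, at least 2 of Bst2, Tcf4 and Irf8 summed, at most 1 of the C1q genes summed, and 0 of Cd3e and Ms4a1. There were 107 members among 9750 barcodes that passed the first limits, called kept barcodes, out of 17389 in the files. AAA_14 held 59 members, AAA_7 held 29 and Sham held 19. AAA_14 came from wild-type mice labelled as induced with elastase and Sham from wild-type mice labelled as induced with PBS. The library titled AAA_7 carries the aneurysm prefix in its title but PBS as its treatment label, also in wild-type mice, so its treatment is in doubt. The labels give neither the unit of the numbers 7 and 14 nor the age of the animals. The aortas of a group were mixed, immune cells were enriched with CD45 beads, and each group is 1 library. No difference between libraries could therefore be tested, and every interval below is a 95% interval that covers counting error only.

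Plasmacytoid dendritic cells are dendritic cells known for making large amounts of type I interferon when Tlr7 or Tlr9 meets nucleic acids in endosomes. The transcription factor Tcf4 (E2-2) sets and keeps their identity with Irf8, Spib, Bcl11a and Runx2. Siglech and Bst2 are surface proteins used to stain them in mice. They circulate through blood and lymphoid organs and enter inflamed tissue, including the diseased arterial wall.

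The members' median depth was 10623 UMIs in AAA_14, 4625 UMIs in AAA_7 and 6644 UMIs in Sham, against medians of 6968, 2581 and 3659 over all kept barcodes of those libraries. Summed, the members held 670355 UMIs in AAA_14, 142455 UMIs in AAA_7 and 133541 UMIs in Sham. The mitochondrial limit removed 47.2% of the barcodes of AAA_14, 7.52% of AAA_7 and 66.9% of Sham, and the members' median mitochondrial share was 7.37%, 1.82% and 8.48%. Depth and mitochondrial share cannot be told apart from the groups. Between 5 and 12 barcode sequences were shared by each pair of libraries, and none belonged to a member. Where barcodes over the mitochondrial limit were read with the same gene thresholds, 18 more in AAA_14, 1 in AAA_7 and 11 in Sham met them.

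The label was checked with 11 known marker genes that the rule did not use, namely Ccr9, Klk1, Cox6a2, Spib, Runx2, Ly6d, Irf7, Tlr7, Tlr9, Pacsin1 and Atp1b1. The median member had a UMI of 8 of them in AAA_14, 7 in AAA_7 and 8 in Sham, and 91 of the 107 members had at least 6. At the other end, 9 members had at most 3, of which 2 were in AAA_14, 4 in AAA_7 and 3 in Sham. Ly6d and the other 10 markers picked these 9, so 2 known genes outside both the rule and the markers, taken after their values were seen, are given. Lair1 was at 41.1 CPM (counts per 1000000 UMIs) and Cd300c at 10.3 CPM in the 9 members, against 677 and 311 CPM in the other 98. Other such genes differed less, with Cd7 at 421 against 592 CPM and Cd209d at 308 against 359 CPM. Ptprc was higher in the 9, at 1037 against 901 CPM. In the 9 members H2-Aa, an MHC class II gene, was at 8184 CPM, against 2524 CPM in the other 98. By the marker count the label held for most members and poorly for these 9. A further check on markers of other cell types, without those of other dendritic cells, found 5 members with at least 0.5% of their UMIs from 1 such list. In 3 of them, 2 in AAA_14 and 1 in AAA_7, the list was neutrophil, at 32.2%, 26.6% and 17.4% of the UMIs, beside 24, 12 and 9 Siglech UMIs. These 3 barcodes held 98.7% of the members' neutrophil marker UMIs in AAA_14 and 98.8% in AAA_7. Leaving out these 5 and every member with fewer than 4 of the 11 markers left 54 members in AAA_14, 24 in AAA_7 and 16 in Sham, called the restricted members below. That restriction was chosen after the data were seen. It did not screen for markers of conventional or mature dendritic cells. In AAA_14, 1 restricted member had 52 UMIs of type 2 conventional dendritic cell markers among its 14602 UMIs.

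**Figure D1:**
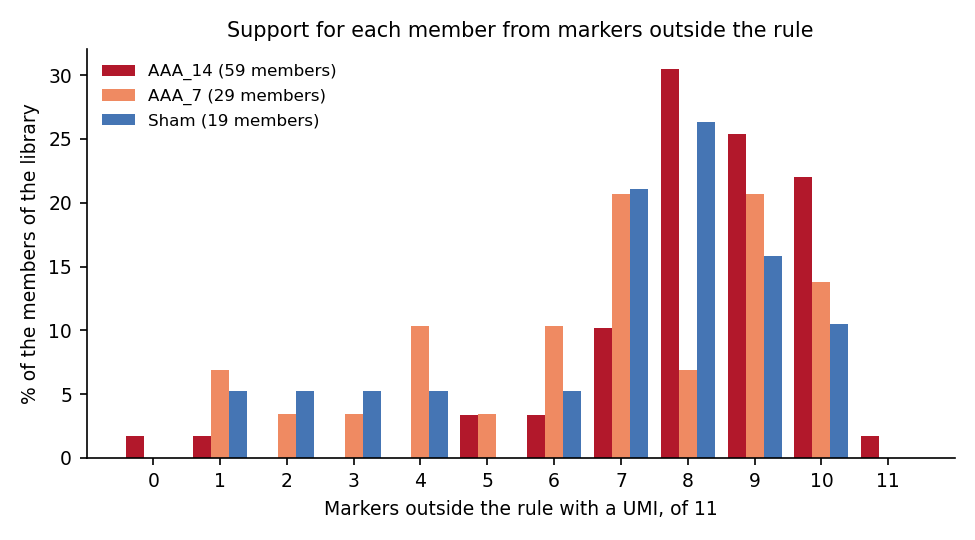
Members of each library by how many of the 11 markers outside the rule had at least 1 UMI; the horizontal axis is that number and the vertical axis the percentage of the library's members, with AAA_14 left, AAA_7 middle and Sham right in each set of bars. Most members sit at 6 or more markers in all 3 libraries, and 9 of the 107 sit at 3 or fewer.

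Just inside the Siglech threshold, with exactly 2 UMIs, lay 1 member of AAA_14, 4 of AAA_7 and 2 of Sham. Just outside it, with exactly 1 UMI and every other condition met, lay 18 barcodes in AAA_14, 4 in AAA_7 and 0 in Sham. In B cells, which should lack the gene, a Siglech UMI was found in 1.64% of 1279 cells of AAA_14, 1.06% of 282 in AAA_7 and 0.939% of 213 in Sham, whose median depths were 5637, 2186 and 2573 UMIs.

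Outside the rule's own genes, the 25 genes with the largest ratio of members over the other kept barcodes lay between 5.11 and 7.96 on the log2 scale of summed CPM. The rule selected these cells by their expression, so the ratios are a description with no test. Of the 25, 16 had a promoter in the RefSeq table (GRCm38.p6), and the first 3 of these by rank are shown because they stand at the start of the genes that set the cells apart. Each runs from 250 bases before to 50 after the start in that RefSeq table, in the direction of transcription. For Cd300c this window lies inside the gene as GENCODE places it, 114956116 to 114969157. Capitals mark CANNTG, the E-box that basic helix-loop-helix factors such as Tcf4 bind, which reads as CANNTG on both strands.
Klk1b27, chr7:44052040-44052339, plus strand: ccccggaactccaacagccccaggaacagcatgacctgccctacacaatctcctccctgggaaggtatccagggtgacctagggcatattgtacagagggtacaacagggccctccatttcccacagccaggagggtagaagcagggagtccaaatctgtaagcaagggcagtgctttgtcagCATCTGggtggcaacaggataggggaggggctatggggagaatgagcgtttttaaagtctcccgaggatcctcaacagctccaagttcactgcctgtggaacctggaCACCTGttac
Cd300c, chr11:114960458-114960757, minus strand: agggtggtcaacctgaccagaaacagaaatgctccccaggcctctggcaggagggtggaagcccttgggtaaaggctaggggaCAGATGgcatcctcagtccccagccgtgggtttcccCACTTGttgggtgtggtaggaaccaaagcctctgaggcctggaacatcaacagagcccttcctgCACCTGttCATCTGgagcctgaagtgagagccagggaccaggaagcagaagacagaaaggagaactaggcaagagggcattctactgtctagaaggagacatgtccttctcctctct
Pdzd4, chrX:73824920-73825219, minus strand: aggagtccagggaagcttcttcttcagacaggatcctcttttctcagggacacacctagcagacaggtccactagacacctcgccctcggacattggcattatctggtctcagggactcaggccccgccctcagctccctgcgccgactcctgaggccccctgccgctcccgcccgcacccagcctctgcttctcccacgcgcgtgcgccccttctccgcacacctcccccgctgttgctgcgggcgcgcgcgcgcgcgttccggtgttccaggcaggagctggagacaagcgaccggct
CANNTG was found in 12 of the 16 promoters, 75%, against 72.1% of 27025 promoters of the same length in the table. The narrower form CACCTG or its reverse complement CAGGTG, a subset of CANNTG, was found in 5 of 16, 31.2%, against 20.0% of all. Both shares are descriptions of these windows and say nothing about binding.

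Klk1b27, whose promoter has 2 E-boxes, stood first with 93 UMIs in the members, 98.3 CPM, against 0.391 CPM in the other kept barcodes and none in the conventional dendritic cells. It belongs with Klk1 (chromosome 7, 44225360 to 44229618), at 478 against 3.56 CPM, to the tissue kallikreins, a family of closely related serine proteases, and how reads shared between such copies were counted is not given in the sources used here. Cox6a2, a heart and muscle form of a cytochrome c oxidase subunit (chromosome 7, 128205435 to 128206387), was at 1066 against 5.53 CPM and was found in 83.2% of members. Cd300c, an activating receptor of the CD300 family with 4 E-boxes in its RefSeq promoter, was at 280 against 1.94 CPM. Pdzd4, a PDZ domain gene with none, was at 161 against 1.19 CPM. Gm21762, a predicted gene, was at 713 against 3.37 CPM. Ccr9, the receptor for the chemokine Ccl25 (chromosome 9, 123678439 to 123784330), was at 814 against 10.6 CPM. Dntt, which encodes the terminal transferase of lymphoid progenitors (chromosome 19, 41029275 to 41059525), was at 234 against 2.56 CPM and was found in 56.1% of members. Runx2, a factor that keeps these cells able to leave bone marrow in mice, closed the 25 at 744 against 21.6 CPM. All 25 genes were also higher in the members than in B cells, in type 1 conventional dendritic cells (cDC1) and in type 2 conventional dendritic cells (cDC2).

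**Figure D2:**
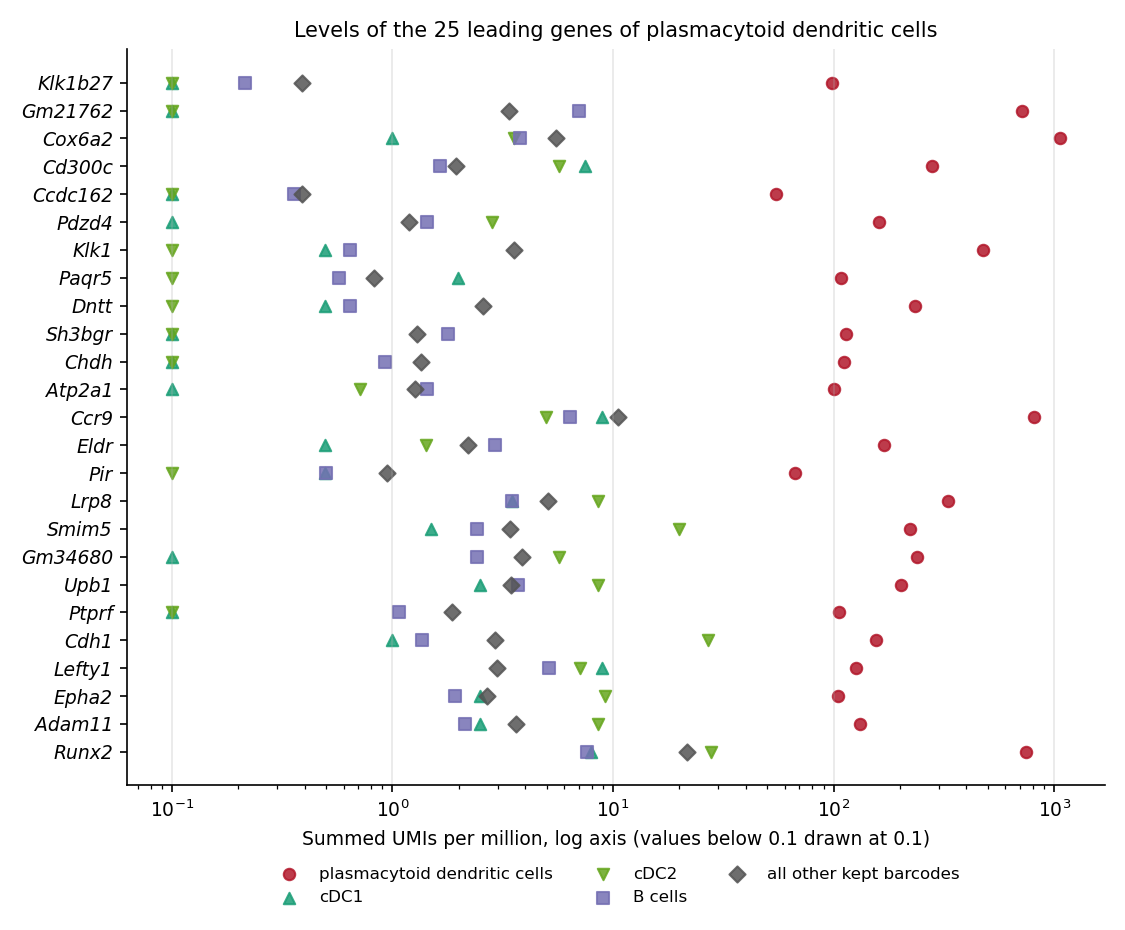
Levels of the 25 leading genes, one row per gene, as summed CPM on a log axis in plasmacytoid dendritic cells (red circles), cDC1 (upward triangles), cDC2 (downward triangles), B cells (squares) and all other kept barcodes (diamonds). The members lie to the right of every other symbol in every row, as the selection of these genes required for the diamonds, with Cox6a2 at 1066 CPM in the members.

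Across the list of other known genes of these cells, 29 of the 30 measured were at least 2-fold higher in the members than in the other kept barcodes, where 19.6% of all genes measured were, and 17% were at least 2-fold lower. The list's median log2 ratio was 4.42, against 0.17 over all genes measured. Among the transcription factors, Tcf4 and Irf8 belong to the rule. Of the 15 others measured 6 were at least 2-fold higher and 3 lower, with a median log2 ratio of 0.83. Spib, an Ets factor shared with B cells, was at 340 CPM against 45.0 in the other kept barcodes, while Irf7, the factor that amplifies interferon genes, was at 246 against 135 CPM. Among lymphoid-type genes, 11 of 15 were at least 2-fold higher in the members, with Cd7 at 575 against 32.4 CPM, Cd8b1 at 223 against 36.0 CPM and Cd4 at 167 against 34.6 CPM. The 4 that were at least 2-fold lower were Cd79b and the immunoglobulin genes Ighm, Igkc and Iglc1. Among inhibitory and activating receptors 10 of 22 were higher and 5 lower, including Lag3, an inhibitory receptor for MHC class II, at 262 against 8.06 CPM, and Lair1, an inhibitory collagen receptor, at 612 against 51.6 CPM. Class II and costimulation genes went the other way in level, since 6 of 16 were at least 2-fold lower and 1 higher. Of 14 class I and immunoproteasome genes 2 were higher and 0 lower. Cell cycle genes were low in the members, with 14 of 22 at least 2-fold lower, 0 higher and Mki67 in 4.67% of members.

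Members differed among themselves in several of their own genes. In AAA_14 the level of Siglech ranged, per 10000 UMIs of the cell, from 0.629 to 55.8 with a median of 23.2, in AAA_7 from 1.77 to 54.6 with a median of 24.5, and in Sham from 1.74 to 48.6 with a median of 25.6. The 3 ranges overlap almost wholly. Klk1 was uneven, since 32 of 59 members in AAA_14, 15 of 29 in AAA_7 and 13 of 19 in Sham had a UMI and the highest single member gave 17.4%, 24.5% and 27.3% of the library's Klk1 UMIs. Ly6c2, a Ly6 surface protein, ranged in the restricted members of AAA_14 from 0.775 to 85.3 with a median of 21.4. Cd209d, a C-type lectin, was absent from the counts of 21 of those 54 members and reached 32.9 per 10000 in the highest. Cd8b1 was at 0 in 28 of them and Cd4 in 20 of them. Cd8b1 was 6.14 log2 units higher in the members than in B cells and 0.49 higher than in T cells, its textbook source.

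The members were 1.12% of the kept barcodes in AAA_14 (0.851 to 1.44%), 0.898% in AAA_7 (0.602 to 1.29%) and 1.54% in Sham (0.929 to 2.39%). The 3 intervals overlap. After each cell was thinned to 1000 UMIs and the rule applied again, the shares were 0.802%, 0.672% and 0.899%, and their intervals overlap too. Among dendritic cells alone, counted as members plus cDC1 plus cDC2, the members were 26.0% of 227 in AAA_14 (20.4 to 32.2%), 33.0% of 88 in AAA_7 (23.3 to 43.8%) and 67.9% of 28 in Sham (47.6 to 84.1%). The Sham interval lies above both others, beside 86 cDC1 in AAA_14, 21 in AAA_7 and 0 in Sham. At 1000 UMIs per cell the same shares were 43.8% of 96 in AAA_14 (33.6 to 54.3%), 54.1% of 37 in AAA_7 (36.9 to 70.5%) and 78.6% of 14 in Sham (49.2 to 95.3%). The order remained, and these intervals overlap.

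**Figure D3:**
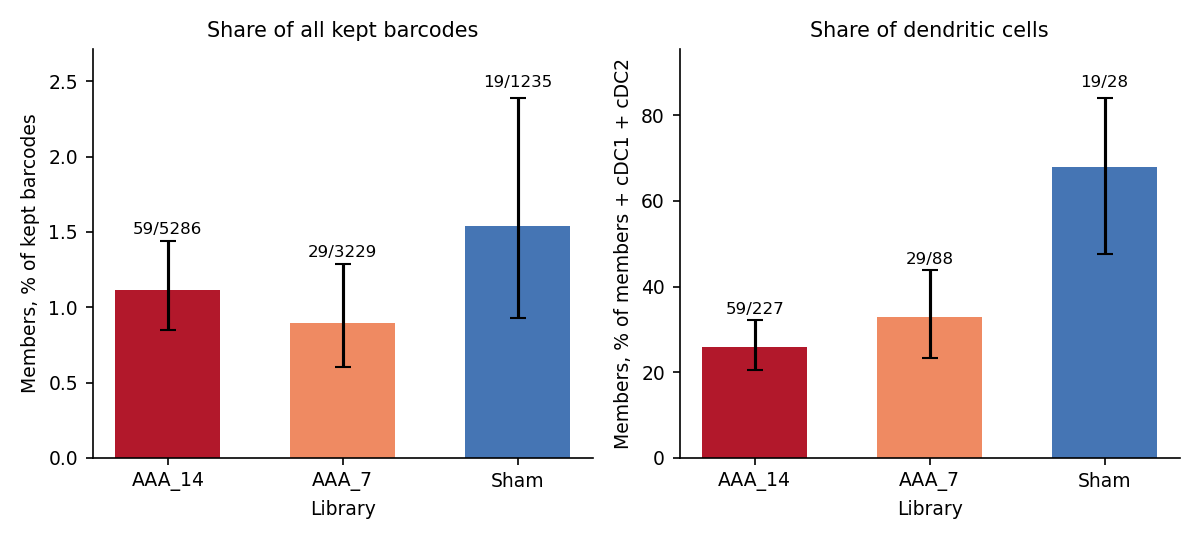
Members as a percentage of all kept barcodes (left panel) and of dendritic cells by these gates (right panel) in AAA_14, AAA_7 and Sham; bars start at 0, error bars are exact 95% binomial intervals for counting error, and the counts stand above them. The left intervals overlap, while in the right panel Sham, with 19 of 28, lies above the other libraries before thinning.

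No interferon transcript was found in the members. The 19 genes for type I and type III interferons had 0 UMIs among 946351, which allows up to 3.17 CPM for each gene over all members. By library the limit is 4.48 CPM in AAA_14, 21.1 CPM in AAA_7 and 22.5 CPM in Sham. A count of 0 also allows a UMI in up to 2.80% of members, which limits cells with a UMI and not cells that express the gene. In the other 9643 kept barcodes, Ifnb1, the gene for interferon beta, had 492 UMIs, of which 382 were in AAA_14, 110 in AAA_7 and 0 in Sham, and the interferon alpha genes had 7. Their receptor was present in the members, with Ifnar1 in 72.0% of them at 228 CPM and Ifnar2 in 90.7%. Tlr7 was found in 50.5% of members and Tlr9 in 4.67%. Unc93b1, the chaperone that carries these receptors to endosomes, had 653 CPM in AAA_14, 541 in AAA_7 and 322 in Sham. Pld4, an endosomal nuclease, had 844 CPM in AAA_14, 793 in AAA_7 and 322 in Sham, a log2 ratio of 1.38 (0.94 to 1.87) for AAA_14 over Sham and 1.29 (0.78 to 1.84) for AAA_7 over Sham. Tlr7 itself, at 92.5, 126 and 97.3 CPM, had intervals that include a ratio of 1. A gene was measured in a comparison where the pair of libraries held 10 or more of its UMIs. Of 18 endosomal sensing genes measured, 10 exceeded a 2-fold higher level in AAA_14 over Sham and 0 a 2-fold lower one, where 24.6% of all 7267 genes were higher and 6.1% lower. With the genes at 0 in Sham set at a bound of 3 UMIs, or left out where AAA_14 lay under it too, 7 of 16 were higher. In AAA_7 over Sham 7 of 15 were higher and 0 lower, where 21.2% and 8.36% of 3744 genes were. Both comparisons use the same Sham library, so they are not independent. The list also holds Lgmn and Tlr2, which phagocytes express. Its median log2 ratio for AAA_14 over Sham was 1.01 in the members and 1.76 in the other kept barcodes. In T cells and B cells that median was 1.59 and 0.96. The Pld4 ratio was 3.20 in the other kept barcodes, 3.37 in T cells and 1.10 in B cells, so higher levels were not particular to the members.

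Genes induced by interferon stood higher in AAA_14 and in AAA_7 than in Sham. Irf7 (chromosome 7, 141262706 to 141266481) had 279 CPM in AAA_14, 253 in AAA_7 and 74.9 in Sham, with a UMI in 47 of 59, 16 of 29 and 6 of 19 members. At 3000 UMIs per cell the shares with an Irf7 UMI were 39.0%, 50.0% and 22.2%. Its log2 ratio was 1.83 (0.99 to 2.98) for AAA_14 over Sham and 1.70 (0.71 to 2.93) for AAA_7 over Sham. Per member the levels of Irf7 overlap between libraries, and the Sham median was 0. Stat2, a transducer of type I interferon signals, had 181 CPM in AAA_14, 204 in AAA_7 and 37.4 in Sham, giving log2 ratios of 2.14 (1.01 to 3.92) and 2.33 (1.06 to 4.17). Slfn5, an interferon-induced Schlafen gene, had 316 CPM in AAA_14, 119 in AAA_7 and 37.4 in Sham, but 1 member gave 34.4%, 41.2% and 40.0% of those UMIs.

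Over the whole interferon-stimulated list, 15 of the 21 genes measured passed 2-fold upward in AAA_14 over Sham and 0 downward, with a median log2 ratio of 1.57 against 0.31 over all genes. Of these, 6 genes had 0 UMIs in Sham, and with such genes at their bound 11 of 19 passed and the median was 1.09. In AAA_7 over Sham 6 of 12 were higher and 0 lower, with a median of 0.96 against 0.25. The shares over all genes were 24.6% higher and 6.1% lower in AAA_14 over Sham, and 21.2% and 8.36% in AAA_7 over Sham. Bst2, which is also a gene of the rule, had the most UMIs of the list and a log2 ratio of only 0.20 (0.05 to 0.36) for AAA_14 over Sham, at 3614 CPM in AAA_14, 3440 in AAA_7 and 3138 in Sham. Without Bst2 the list summed to 2861 CPM in AAA_14, 2696 in AAA_7 and 1138 in Sham, a ratio of 2.51 (2.13 to 2.98) and of 2.37 (1.96 to 2.88) over Sham. In the restricted members these ratios were 1.90 (1.60 to 2.27) and 1.78 (1.45 to 2.20), and 10 of 19 genes passed 2-fold upward in AAA_14 over Sham, where 25.6% of all genes did. In AAA_7 over Sham 4 of 11 did in the restricted members, where 20.2% of all genes did, with a median of 0.52 against 0.26. The median for AAA_14 over Sham was 0.19 with 5 counts added to each sum in place of 0.5. With cells thinned to 1000 UMIs it was 0.21, but only 5 of the list's genes were then still measured, against 21. The same list without Bst2 was 3.48 (3.39 to 3.57) times as high in AAA_14 as in Sham in the other kept barcodes, so higher levels were not particular to the members. Markers of macrophages and monocytes also moved with the libraries, with a median summed level per 10000 UMIs of 7.06 (0.775 to 67.6) in members of AAA_14, 4.44 (0 to 97.3) in AAA_7 and 1.66 (0 to 11.7) in Sham. Of the 8 markers behind those levels 0 were without a UMI over all members, and Lyz2, the lysozyme of macrophages and neutrophils, had 330, 36 and 0 UMIs, with 1 member giving 37.6% in AAA_14 and 50.0% in AAA_7. A Lyz2 UMI was found in 44.1%, 27.6% and 0% of members in AAA_14, AAA_7 and Sham. In B cells, at their lower depths given above, the shares were 45.0%, 31.2% and 5.16%. Whether the members' Lyz2 is background RNA or comes from mixed barcodes was not tested. In the restricted members the summed markers were still 2.68 (1.84 to 4.06) times as high in AAA_14 as in Sham. Their part in the result was not tested.

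Some MHC class I genes, H2-D1, H2-T23 and Tap1 among them, stood above Sham in the other libraries, and for H2-D1 this could be seen in single members. H2-D1, a class I heavy chain (chromosome 17, 35262730 to 35267499), had 2212 CPM in AAA_14, 1565 in AAA_7 and 749 in Sham. Per member, H2-D1 ranged from 8.02 to 42.6 per 10000 UMIs in AAA_14 with a median of 22.7, from 0 to 31.6 in AAA_7 with a median of 15.9, and from 2.61 to 16.2 in Sham with a median of 6.91. The ranges overlap, with the Sham maximum under the AAA_14 median. The log2 ratio was 1.56 (1.27 to 1.87) for AAA_14 over Sham and 1.06 (0.72 to 1.42) for AAA_7 over Sham. H2-T23, a nonclassical class I gene, had ratios of 1.61 (1.17 to 2.13) and 1.29 (0.76 to 1.86). Tap1, a subunit of the peptide transporter (chromosome 17, 34187553 to 34197225), was counted 110 times in AAA_14 members, 30 times in AAA_7 members and 2 times in Sham members, ratios of 3.14 (1.57 to 6.52) and 3.52 (1.84 to 6.92). With cells thinned to 1000 UMIs both Tap1 ratios changed sign, to -0.80 and -0.014. B2m, the shared light chain, had 3330 CPM in AAA_14, 3643 in AAA_7 and 3490 in Sham, with intervals that include a ratio of 1. Class I genes are close copies of each other, so reads shared among them are uncertain. Of 14 genes, 6 passed 2-fold upward in AAA_14 over Sham and 0 downward, with a median of 0.91. In AAA_7 over Sham 4 of 13 were higher and 2 lower, with a median of 0.72. The shares over all genes were 24.6% higher and 6.1% lower in AAA_14 over Sham and 21.2% and 8.36% in AAA_7 over Sham. In the restricted members 3 of 13 were higher and 1 lower in AAA_7 over Sham. The summed list was 1.5 (1.41 to 1.60) times as high in AAA_14 as in Sham in the members and 2.06 (2.04 to 2.09) times in the other kept barcodes.

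Class II genes did not share that direction. H2-Aa had 2903 CPM in AAA_14, 2541 in AAA_7 and 4733 in Sham, giving log2 ratios of -0.71 (-0.84 to -0.57) and -0.90 (-1.09 to -0.71) over Sham. The costimulation gene Cd83 had 40.3, 42.1 and 262 CPM, and Cd86 11.9, 49.1 and 105 CPM in AAA_14, AAA_7 and Sham. Of the members' 29 Cd86 UMIs, 23 lay in the 9 members with few markers, as did 23 of 68 Cd83 UMIs. Of 12 class II and costimulation genes 1 was at least 2-fold higher and 3 lower in AAA_14 than in Sham, and of 11 in AAA_7 1 was higher and 4 lower, where the shares over all genes were 24.6% and 6.1% in AAA_14 and 21.2% and 8.36% in AAA_7. In the restricted members 2 of 11 were higher and 2 lower in AAA_14 over Sham, and 1 of 8 higher and 1 lower in AAA_7 over Sham. In the other kept barcodes the summed list was 3.02 (2.99 to 3.05) times as high in AAA_14 as in Sham, against 0.850 (0.811 to 0.890) times in the members. In B cells 0 of 16 genes were higher and 2 lower, with a median of -0.33 for AAA_14 over Sham, beside -0.11 in the members.

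**Figure D4:**
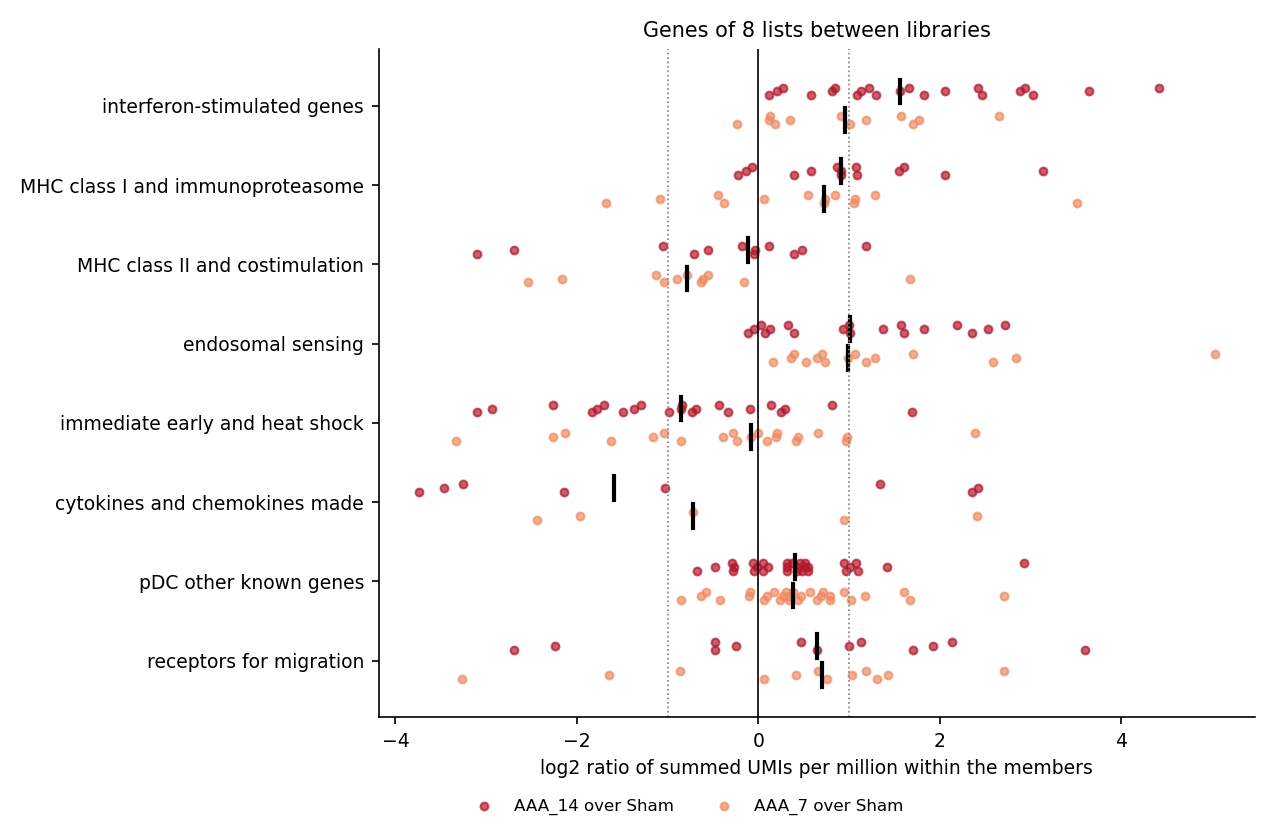
Log2 ratio of summed CPM within the members for each gene measured, in 8 lists, for AAA_14 over Sham (dark red, upper row of each list) and AAA_7 over Sham (orange, lower row); black bars are list medians and dotted lines mark 2-fold. All 21 interferon-stimulated genes lie above 0 for AAA_14 over Sham, while the median of immediate early and heat shock genes is -0.85.

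Sham members carried most of the chemokine Ccl4. Ccl4, which attracts T cells and monocytes (chromosome 11, 83662584 to 83664683), had 786 CPM in AAA_14, 2232 in AAA_7 and 8716 in Sham. Per member its level ranged from 0 to 158 per 10000 UMIs in AAA_14 with a median of 1.81, from 0 to 145 in AAA_7 with a median of 13, and from 0 to 364 in Sham with a median of 86.2. The ranges overlap, and the Sham median lies above the upper quartiles of the other libraries, 8.0 in AAA_14 and 31.1 in AAA_7. The log2 ratio was -3.47 (-3.62 to -3.32) for AAA_14 over Sham and -1.96 (-2.15 to -1.79) for AAA_7 over Sham. Its neighbour Ccl3 had 40.3, 98.3 and 547 CPM in AAA_14, AAA_7 and Sham. In the other kept barcodes Ccl4 went the other way, with 1058 CPM in AAA_14, 2986 in AAA_7 and 442 in Sham. B cells had 335 CPM in AAA_14, 1112 CPM in AAA_7 and 554 CPM in Sham, lower than Sham in AAA_14 and higher in AAA_7. Il1b, the gene for interleukin 1 beta, had 14, 156 and 27 UMIs in members of AAA_14, AAA_7 and Sham, and 1 member gave 63.5% of those in AAA_7 and 74.1% in Sham. An Il1b UMI was found in 16.9%, 44.8% and 15.8% of members, against 23.5%, 25.5% and 3.76% of B cells in AAA_14, AAA_7 and Sham. Il12a, a subunit of interleukins 12 and 35, was counted 38 times in 10 members of AAA_14, with 0 UMIs in AAA_7 and 1 UMI in Sham. Of 8 cytokine genes measured 3 passed 2-fold upward and 5 downward in AAA_14 over Sham, and of 5 in AAA_7 over Sham 1 was higher and 2 lower. With the gene at 0 in Sham left out as under the floor, 2 of 7 were higher in AAA_14. The shares over all genes were 24.6% higher and 6.1% lower in AAA_14 over Sham, and 21.2% and 8.36% in AAA_7 over Sham.

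Immediate early genes, switched on within minutes of a stimulus that includes tissue digestion, were also highest in Sham members. Fos (chromosome 12, 85473890 to 85477273) had 310 CPM in AAA_14, 541 in AAA_7 and 2381 in Sham, with medians per member of 1.24, 0 and 23.4 per 10000 UMIs. Its partner Jun had 637, 976 and 2179 CPM and Klf6, a Krüppel-like factor, 206, 204 and 988 CPM in AAA_14, AAA_7 and Sham. The ratios of Fos were -2.94 (-3.20 to -2.68) and -2.13 (-2.52 to -1.78) over Sham, the second -2.78 with the member holding most Fos UMIs left out of each library, which gave 44.2% of them in AAA_7. Not all the list followed, since Junb had 428, 681 and 344 CPM and Btg2 586, 646 and 329 CPM. Of 22 immediate early and heat shock genes 1 was at least 2-fold higher and 9 lower in AAA_14 than in Sham, with a median of -0.85. In AAA_7 over Sham 1 of 21 was higher and 6 lower, with a median of -0.08, and -0.98 in the restricted members. Over all genes 24.6% were higher and 6.1% lower in AAA_14 over Sham, and 21.2% and 8.36% in AAA_7 over Sham. The summed list was 0.498 (0.475 to 0.522) times as high in AAA_14 as in Sham in the members and 1.12 (1.11 to 1.13) times in the other kept barcodes. B cells also had lower Fos, at 357 CPM in AAA_14, 264 CPM in AAA_7 and 636 CPM in Sham. Sham had the highest mitochondrial share, and its part in these values was not tested.

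**Figure D5:**
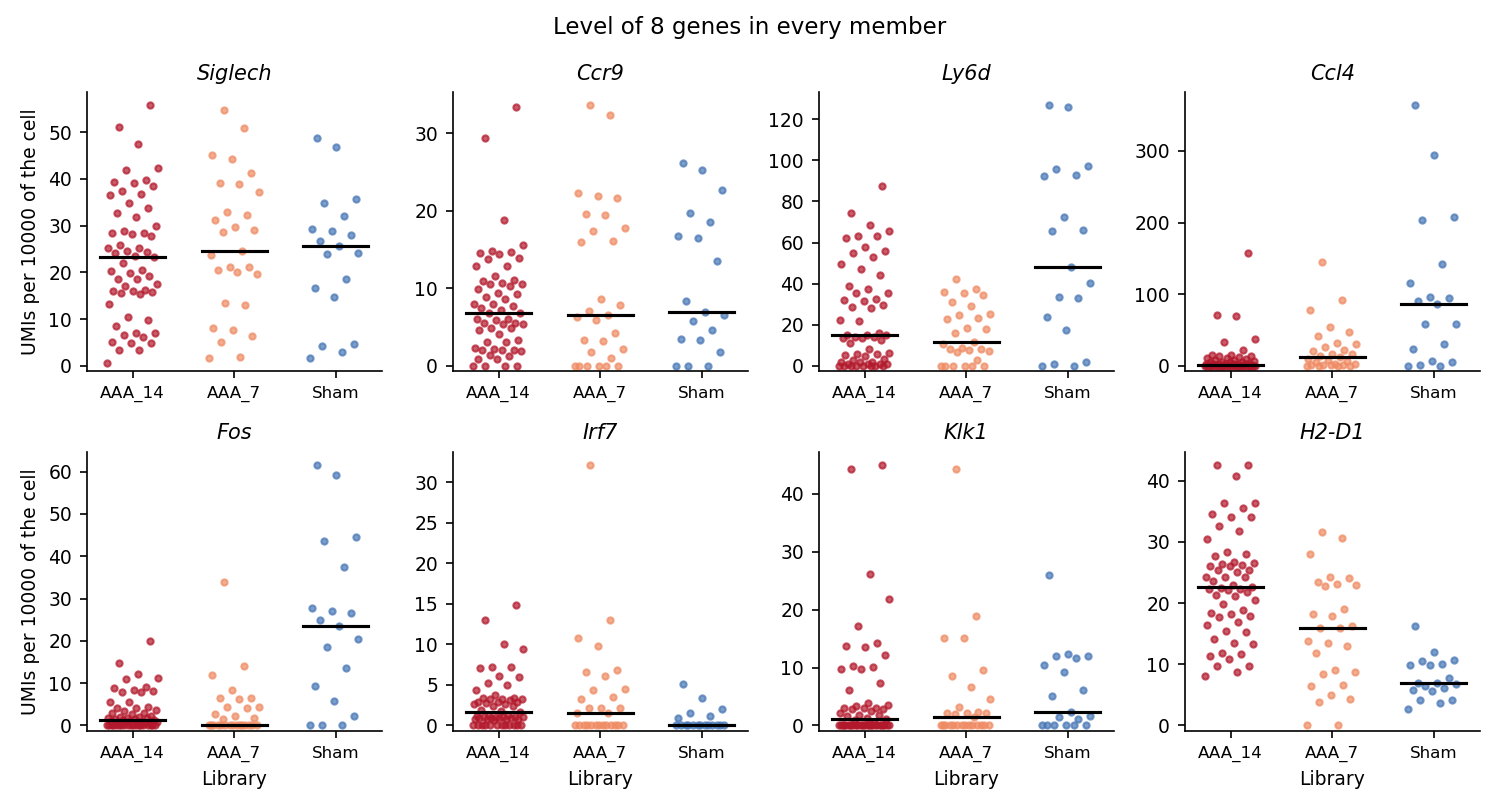
Level of 8 genes in each member, as UMIs per 10000 UMIs of the cell, in AAA_14, AAA_7 and Sham; each point is 1 member and black lines are medians. Siglech and Ccr9 lie at like levels in the 3 libraries, Ly6d, Ccl4 and Fos are highest in Sham, and H2-D1 is highest in AAA_14 with a median of 22.7.

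Genes of cell identity differed unevenly between libraries. Siglech and Irf8 belong to the rule, so their levels in members only describe what was selected. Siglech had 2148 CPM in AAA_14, 2148 in AAA_7 and 2239 in Sham. Ccr9 had 725, 1053 and 1003 CPM in AAA_14, AAA_7 and Sham, with medians per member of 6.87, 6.51 and 6.96 per 10000 UMIs. Ly6d, a surface protein of lymphoid-lineage progenitors (chromosome 15, 74762056 to 74763620), had 2260 CPM in AAA_14, 1453 in AAA_7 and 5115 in Sham, giving log2 ratios of -1.18 (-1.31 to -1.05) and -1.81 (-2.05 to -1.59). Ly6d was likewise lower in B cells, at 730 CPM in AAA_14, 798 in AAA_7 and 1768 in Sham. Irf8, the factor of dendritic cell development, had 3168 CPM in AAA_14, 3313 in AAA_7 and 1677 in Sham, log2 ratios of 0.91 and 0.98 over Sham. In the restricted members the Irf8 ratio for AAA_14 over Sham was 0.66. Without an Irf8 UMI were 1 member of AAA_14, 3 of AAA_7 and 3 of Sham. Ly6c2 had 2390, 1902 and 1003 CPM and Dntt 249, 295 and 89.9 CPM in AAA_14, AAA_7 and Sham. Of 30 other known genes of these cells 5 were at least 2-fold higher in AAA_14 than in Sham and 0 lower, where 24.6% and 6.1% of all genes were. Their median was 0.40, near the median of 0.31 over all genes.

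Among receptors that guide migration, Ccr2, the receptor for Ccl2, had 345, 175 and 74.9 CPM in AAA_14, AAA_7 and Sham, and at 3000 UMIs per cell a Ccr2 UMI was found in 44.1%, 29.2% and 11.1% of members. Cxcr4, the receptor for Cxcl12, had 122, 183 and 577 CPM, ratios of -2.24 (-2.70 to -1.77) and -1.64 over Sham. For AAA_14 over Sham the other kept barcodes had log2 ratios of 1.78 for Ccr2 and -1.14 for Cxcr4. B cells had -0.01 and -1.48. Cxcr3, a receptor for interferon-induced chemokines, was counted 30 times in 18 members of AAA_14, with 2 UMIs in AAA_7 and 0 UMIs in Sham. Of 13 such genes 5 were at least 2-fold higher and 2 lower in AAA_14 than in Sham, and of 12 in AAA_7 5 were higher and 2 lower. With Cxcr3 at its bound, 4 of 13 were higher in AAA_14, near the 24.6% over all genes, while the lower calls compare with 6.1%. In AAA_7 the shares over all genes were 21.2% and 8.36%.

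The remaining lists are read against the shares over all genes, 24.6% higher and 6.1% lower in AAA_14 over Sham and 21.2% higher and 8.36% lower in AAA_7 over Sham. Secretory pathway genes had a summed 5497 CPM in AAA_14, 7497 CPM in AAA_7 and 6650 CPM in Sham, or 0.827 (0.768 to 0.891) and 1.13 (1.03 to 1.23) times Sham. Of these genes 3 of 22 were higher and 3 lower in AAA_14 over Sham, with a median of 0.06 that differs in sign from the sum, and 5 of 21 higher and 1 lower in AAA_7 over Sham. Xbp1, the factor of secretory cells, had 374, 428 and 442 CPM and Canx, the chaperone calnexin, 340, 372 and 97.3 CPM in AAA_14, AAA_7 and Sham. Hypoxia and glycolysis genes had 3 of 13 higher and 0 lower in AAA_14 over Sham, near the share over all genes, and 5 of 10 higher and 0 lower in AAA_7 over Sham, with medians of 0.27 and 0.63. Cell death and survival genes had 1 of 10 higher and 2 lower in AAA_14 over Sham, and 2 of 6 higher and 0 lower in AAA_7 over Sham. Pmaip1, a pro-apoptotic gene of that list, had 70.1, 316 and 315 CPM in AAA_14, AAA_7 and Sham. Cell cycle genes had 6 of 11 higher and 0 lower in AAA_14 over Sham with a median of 1.13, and 3 of 10 higher with a median of 0.55 with the genes at 0 at their bound. In AAA_7 over Sham 0 of 5 cell cycle genes were higher and 1 lower, with a median of -0.52. The cell cycle values rest on few cells, since 1 member gave 57.3% of the UMIs of Stmn1, a tubulin regulator, in AAA_14. Genes of transitional and precursor dendritic cells had 5 of 16 higher and 2 lower in AAA_14 over Sham, 3 of 15 higher with the genes at 0 at their bound, and 5 of 13 higher and 1 lower in AAA_7 over Sham. Of the 25 leading genes, Cdh1, the gene for E-cadherin, had 161, 253 and 22.5 CPM in AAA_14, AAA_7 and Sham, ratios of 2.63 (1.26 to 5.14) and 3.29 (1.83 to 5.84).

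Between AAA_14 and AAA_7 members a smaller share of the measured genes passed 2-fold than in either comparison with Sham. All 7397 genes measured had a median log2 ratio of 0.00, with 12.8% at least 2-fold higher and 9.02% lower in AAA_14. Of 22 interferon-stimulated genes 4 were higher and 2 lower, with a median of 0.10, and of 14 class I genes 1 was higher and 0 lower. Of 22 secretory pathway genes 0 were higher and 2 lower, with a median of -0.51. Genes were ranked only with at least 30 UMIs in the higher library, at most 25% of them from 1 member and further limits, which left out Il1b at a log2 ratio of -5.67, among others. Within these limits the genes lowest in AAA_14 relative to AAA_7 began with Gm20186, a predicted gene, at 49.2 against 253 CPM, and Nfkbid, a regulator of NF-kappaB, at 56.7 against 288 CPM. They went on with Pim1, a survival kinase induced by cytokines, at 270 against 1081 CPM, and Hspa1b, a heat shock protein with a near-identical copy, at 789 against 2576 CPM. The others were Il4ra, Ccl4, Cdkn2d, Mzb1, Cd69 and Zfp36l1, with log2 ratios from -1.59 to -1.44. In Sham, Pim1 had 524 CPM, Hspa1b 1925 and Cd69, an early activation marker, 629. The genes highest in AAA_14 rested on 0 or 1 UMI in AAA_7. Ssu72, a phosphatase of RNA polymerase II, had 54 UMIs against 0, at least 3.83-fold higher against a floor of 3 UMIs per library, and Pts, an enzyme of tetrahydrobiopterin synthesis, had 47 against 0, at least 3.33-fold higher. Xpo1, B430306N03Rik, Snrpa1 and Ttc13 also had 0 in AAA_7, and Vamp3, Nrp1, Tasor2 and 0610012G03Rik had 1. Sham was not ranked against the others because it held only 19 members, under the 20 set for ranking.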

How the data were processed

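The authors deposited unnormalised UMI counts per gene and barcode for 3 droplet 3' libraries. Per the file headers, the matrices came from Cell Ranger 6.1.2. Seurat and the build mm10 are named, with no role, in the submitters' notes. The reference annotation is not given in the sources used here. Counts were used as deposited. UMIs were summed over members and scaled to CPM. Log2 ratios had 0.5 counts added, genes needed 10 UMIs in both groups together, and intervals came from the exact conditional binomial distribution, shares from Clopper-Pearson. With 1 library per group, called means at least 2-fold and no p-value was computed.

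Genes were named as list members, as the 25 leading genes, or as the 10 first in each direction between libraries with at least 20 members. In the higher library those genes needed at least 30 UMIs, at most 25% of them from 1 member, an interval on 1 side of 0 and at least 0.1 times the gene's level in the comparison cell type where it was highest. cDC1, cDC2, B cells, T cells and neutrophils were gated on UMI thresholds of their markers. Members and lists were chosen with earlier results of these data known. Positions are from GENCODE vM21 (GRCm38), which holds 99.6% of the gene identifiers. Python 3.11.15, NumPy 2.4.6, SciPy 1.17.1 and edgeR 4.0.16 (TMM factors only) were used. Doublets were removed only in an alternative, by Scrublet score in scanpy 1.11.5. On simulated counts with 200 changed genes among 7267, for AAA_14 over Sham, 92% of 4-fold changes passed 2-fold and 97.4% of intervals covered the truth, while 14.9% of unchanged genes also passed 2-fold. The simulated counts held counting error only, with no further spread between cells, so that coverage need not hold for the members. Some genes are not reported here.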

Additional observations from a re-analysis of the deposited data

How the results depend on the processing

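No paired analysis was possible because each group is 1 library. Of 1457 values under other settings or against other cells, 34 changed sign where the main interval excluded 0. A further 14 that answer a comparison and 228 others moved outside their main interval. For shares and single genes that interval is counting error, and for list medians it comes from the ordered ratios of the list's genes. Leading genes over B cells, cDC1 and cDC2 were also judged against their interval over the other kept barcodes. The cause was not tested. Depth limits genes with few UMIs, since Sham members held 133541 UMIs. The restriction of members was chosen after the data were seen, and it reversed 0 of the values whose interval excluded 0. Some list medians near 0 did change sign under it. The secretory pathway median for AAA_14 over Sham went from 0.06 to -0.03. A mitochondrial limit of 5% left 5 members in AAA_14 and 1 in Sham. The Sham member had 1 of the 11 markers. Those of AAA_14 included the members with 32.2% and 26.6% neutrophil UMIs and members with 0 and 1 of the 11 markers. All of these lie outside the restricted members. Under the 5% limit the members' share of kept barcodes was 0.316% in AAA_14 and 0.735% in Sham. The interferon-stimulated median was 2.59 (AAA_14 over Sham) and 2.52 (AAA_7 over Sham), and the class I median 1.27 (AAA_7 over Sham). With a limit of 20% these shares were 0.839% and 0.917%, with none 0.768% and 0.808%, and with 1000 UMIs per cell 0.802% and 0.899%. With 1 Siglech UMI allowed the AAA_14 share was 1.46%. The interferon-stimulated median for AAA_14 over Sham was 0.21 with 1000 UMIs per cell, where 5 genes were still measured, and 0.19 with 5 counts added.

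Log2 ratios whose main interval excluded 0 changed sign as follows. Under the 5% limit every ratio over Sham rests on the 1 Sham member described above, which fits the label poorly. For AAA_14 over Sham, the 5% limit gave Ly6d 2.33, Ccr9 1.37, Cox6a2 1.06, Il12a -0.71 and Ccr2 -0.063. Thinning gave Bst2 -0.061, Cox6a2 0.25 and Tap1 -0.80, TMM gave Bst2 -0.048, and 1 Siglech UMI gave Bst2 -0.20 and the median of other known genes -0.036. For AAA_7 over Sham, the 5% limit gave Tcf4 1.57, Ly6d 5.10, Klk1 3.01, Ccl4 2.01, Il1b -0.67, Pim1 -0.53, Ccr2 -0.29 and Cd69 2.82. Thinning gave Tcf4 0.12, Tap1 -0.014, Il1b -1.35, Pim1 -0.42 and Ccr2 -2.45. For AAA_14 over AAA_7, the 5% limit gave Tcf4 -1.55, Ly6d -2.77, Fos 0.026 and Ly6c2 -1.20. Thinning gave Slfn5 -0.71, Fos 0.11, Jun 0.21 and Ly6c2 -0.11, and 3 Siglech UMIs gave Fos 0.45 and Jun 0.085.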
